A study of Mus musculus with 6 samples.

Results

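The MHC class I and antigen processing genes are 10 mouse genes (H2-K1, H2-D1, B2m, Tap1, Tap2, Tapbp, Psmb8, Psmb9, Psmb10 and Nlrc5) taken by symbol from the 56748 genes of the count table, as genes of this pathway. Each symbol was found in 1 row, and 9 of the 10 had enough counts to be among the 13107 genes tested, all but Nlrc5. They were measured by bulk RNA-Seq in endothelial cells (ECs) sorted from the mouse spinal cord at postnatal day 16. There were 3 control (Ctrl) and 3 TDP-43iΔEC libraries, each taken here as 1 mouse, which the labels do not state. TDP-43iΔEC mice (labelled KO) carried Cdh5(PAC)-CreERT2, an inducible Cre driven by the endothelial Cdh5 promoter, with floxed Tardbp alleles, whereas Ctrl mice carried the floxed alleles only, so that Cre and the loss of Tardbp cannot be told apart. Tardbp encodes TDP-43, an RNA-binding protein. Both groups received tamoxifen at 1 mg/mL on postnatal days 5 to 7.

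MHC class I molecules display peptides from inside the cell to CD8+ T cells. The proteasome cuts proteins into peptides, the TAP transporter carries them into the endoplasmic reticulum, and tapasin and its partners load them on a heavy chain bound to β2-microglobulin. Interferons induce most genes of this pathway, including the immunoproteasome subunits that take the place of the standard catalytic ones, and the regulator NLRC5 acts at class I promoters through the X and Y boxes. Spinal cord ECs form the blood-spinal cord barrier, and ECs are among the cells of the central nervous system known to express class I.

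Of the 9 tested genes, 0 passed an adjusted p of 0.05 (limma, Benjamini-Hochberg over all tested genes), beside a background of 18 of 13107 genes, or 0.137% (0.0305% higher and 0.107% lower in TDP-43iΔEC). At an unadjusted p of 0.05 the counts were 0 of 9 and 9.27% of all tested genes. The log2 fold changes of TDP-43iΔEC over Ctrl ECs were above 0 for H2-K1, H2-D1, B2m and Tapbp and below 0 for Tap1, Tap2, Psmb8, Psmb9 and Psmb10. They ran from -4.04 to 0.38 with a median of -0.09, whereas the median over all tested genes was -0.02. In 1 of the 9, Psmb9, the values of the groups did not overlap, which held for 15% of all tested genes (7.1% for genes lower in TDP-43iΔEC). The genes most abundant per transcript length, B2m and H2-D1, also had the narrowest intervals of the fold change together with H2-K1, Tapbp and Psmb10.

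Sequences upstream of 5 of these genes are given here because transcription of the pathway is known to be controlled there. They come from RefSeq promoter windows (build GRCm38.p6, which is not the build of the counts), and 8 of the 10 genes had such a window, all but Tap2 and Nlrc5. Each is the 250 bases before the annotated start of the gene, except that the RefSeq starts of Psmb9 and Tap1 lie head to head with 225 bases between them, and that whole interval is given on the Tap1 strand. H2-K1 is at chr17:34000348-34000597 (minus strand), H2-D1 at chr17:35262844-35263093 (plus), B2m at chr2:122147437-122147686 (plus) and the Psmb9-Tap1 interval at chr17:34187331-34187555 (plus). Capitals mark matches on either strand to an interferon regulatory factor core (AANNGAAA), an NF-kB site (GGGNN followed by TTNCC), the X2 part of the class I enhanceosome (TGACGC) and the Y box (CCAAT), letters chosen after the sequences were seen.
H2-K1: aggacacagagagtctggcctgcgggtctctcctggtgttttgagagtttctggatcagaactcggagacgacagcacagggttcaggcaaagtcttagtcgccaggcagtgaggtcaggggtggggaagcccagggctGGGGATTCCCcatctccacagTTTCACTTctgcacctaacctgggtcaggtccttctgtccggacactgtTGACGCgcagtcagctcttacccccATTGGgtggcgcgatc
H2-D1: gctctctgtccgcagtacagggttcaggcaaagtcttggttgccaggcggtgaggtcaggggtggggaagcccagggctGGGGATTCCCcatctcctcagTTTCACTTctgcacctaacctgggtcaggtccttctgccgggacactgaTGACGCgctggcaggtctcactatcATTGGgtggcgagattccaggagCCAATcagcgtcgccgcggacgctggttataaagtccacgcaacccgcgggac
B2m: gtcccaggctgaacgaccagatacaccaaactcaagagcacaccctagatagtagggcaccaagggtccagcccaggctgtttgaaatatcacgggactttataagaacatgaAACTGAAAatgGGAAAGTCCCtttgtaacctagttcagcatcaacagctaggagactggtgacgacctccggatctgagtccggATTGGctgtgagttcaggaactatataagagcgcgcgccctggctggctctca
Psmb9-Tap1 interval: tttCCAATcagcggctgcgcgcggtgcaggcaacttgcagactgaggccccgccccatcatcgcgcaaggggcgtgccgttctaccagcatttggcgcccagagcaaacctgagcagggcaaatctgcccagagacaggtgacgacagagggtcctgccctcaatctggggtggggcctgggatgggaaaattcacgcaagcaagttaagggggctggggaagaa
In H2-K1 and H2-D1 the 4 elements followed each other in the same order, with the NF-kB site starting 111 and 171 bases before the start, the interferon core 90 and 150, and the X2 site 41 and 101. B2m held the interferon core 137 and the NF-kB site 126 bases before the start, and no X2 match in these letters. The interval between Psmb9 and Tap1 held only a Y box of these 4 elements. The GENCODE models of Psmb9 and Tap1 on GRCm39 are longer and overlap, so the annotations differ on these starts. In windows of 300 bases (250 before and 50 after the start), the interferon core was in 3 of 8 of these genes and in 23.9% of 32851 windows, the NF-kB site in 3 of 8 and 4.79%, the X2 site in 2 of 8 and 7.4%, and the Y box in 6 of 8 and 37.4%. The Y box of Psmb9 and that of Tap1 are the same letters in their shared interval. The windows of H2-K1 and H2-D1 are also much alike, with the same NF-kB, interferon core and X2 letters, so their matches are not independent. A match describes the letters and not a bound site.

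The libraries held 25704871 to 47270654 counts, and 12972 to 16557 genes had a count. A count of 3 corresponded to 0.0635 to 0.117 CPM (counts scaled to the library total). The targeted gene Tardbp was lower in every TDP-43iΔEC library, with normalized counts (counts divided by library size factors) of 1973, 2282 and 2069 in Ctrl and 982, 599.9 and 433 in TDP-43iΔEC (log2 fold change -1.62 ± 0.41 SE, limma adjusted p = 0.287). Counts cover the whole gene and not only the floxed exon 3. EC markers summed to 9629 to 13455 CPM in Ctrl and 9629.9 to 12071 in TDP-43iΔEC. Cldn5 alone made up 4889 to 7751 CPM in Ctrl and 5241 to 7169 in TDP-43iΔEC. Among the 8 markers, 3 (Kdr, Flt1 and Tek) were lower in TDP-43iΔEC without overlap, beside 7.1% of all tested genes. At an unadjusted p of 0.05, 2 were lower (5% of all tested genes), and 0 passed the adjusted threshold. Flt1 had a log2 fold change of -0.69 ± 0.11 (SE, limma adjusted p = 0.0635). Groups did not overlap in ribosomal RNA, at 14.8% to 18.5% of counts in Ctrl and 8.04% to 13.6% in TDP-43iΔEC, nor in hemoglobin, at 0.631% to 0.970% and 0.219% to 0.291%. The part of these shares in the results below was not tested.

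H2-K1 and H2-D1 encode the classical class I heavy chains, which hold the peptide. H2-K1 (chr17:34214987-34219321, minus strand, GRCm39) had normalized counts of 6592, 3718 and 4623 in Ctrl 1 to 3 and 5034, 8619 and 4334 in TDP-43iΔEC 1 to 3. The groups overlapped, and the third Ctrl value lay between the lower pair of TDP-43iΔEC values. Means were 4978 ± 1469 and 5995 ± 2299 (SD, n = 3 each), and the log2 fold change was 0.20 ± 0.31 (SE, 95% interval -0.51 to 0.91, limma adjusted p = 0.855).

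H2-D1 (chr17:35481691-35486475, plus strand) was several times more abundant, with 20922, 23755 and 16090 normalized counts in Ctrl and 21334, 29372 and 16450 in TDP-43iΔEC. The second TDP-43iΔEC mouse was the highest for both heavy chains, and the other TDP-43iΔEC mice lay within the Ctrl range for H2-D1. Means were 20256 ± 3876 and 22385 ± 6525 (SD, n = 3 each), with a log2 fold change of 0.10 ± 0.22 (SE, 95% interval -0.40 to 0.59, limma adjusted p = 0.909). Without that mouse the log2 fold changes were -0.07 for H2-K1 and -0.10 for H2-D1, so the sign of both changed with it, and it also changed for H2-K1 without the second Ctrl mouse (-0.01) and for H2-D1 without the third (-0.05). H2-K1 made up 13.5% to 24.0% of the 2 genes' counts together.

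The genes are near-copies, and their counts depended on how the authors' software shared reads between them. Of the H2-K1 canonical transcript, 59.7% lay in stretches of 51 bases also found in other genes' transcripts, 27.9% in stretches shared with H2-D1, 18.4% with H2-Q4 and 12.7% with H2-T23. For H2-D1 the shared part was 64.9%. Gm53999, transcribed against H2-K1, covers 26.8% of its exon bases and 5430410E06Rik, transcribed against H2-D1, covers 24.2%, and counting ignored strand. The longest identical run of H2-K1 and H2-D1, 91 bases in coding exon 4 of 8 of both genes, shows a stretch in which a single read could not be assigned. Reads were paired, so a mate outside the run could still place the pair. The run lies at chr17:34216317-34216407 (minus strand) in H2-K1 and at chr17:35484887-35484977 (plus strand) in H2-D1, GRCm39.
H2-K1 and H2-D1: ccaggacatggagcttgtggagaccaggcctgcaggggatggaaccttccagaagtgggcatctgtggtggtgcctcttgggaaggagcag
The sum of the 2 genes does not depend on that split between them. It was 27514, 27473 and 20713 normalized counts in Ctrl and 26368, 37990 and 20784 in TDP-43iΔEC. Groups overlapped, and the log2 difference was 0.14 (2-sided exact permutation test, p = 0.8, where 3 against 3 mice can give no p under 0.1).

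B2m, β2-microglobulin, is the light chain that every classical class I heavy chain needs to leave the endoplasmic reticulum. B2m (chr2:121977957-121983594, plus strand) had 23963, 23880 and 31816 normalized counts in Ctrl and 27208, 25154 and 30546 in TDP-43iΔEC. All 3 TDP-43iΔEC mice lay within the Ctrl range. Means were 26553 ± 4558 and 27636 ± 2722 (SD, n = 3 each), and the log2 fold change was 0.02 ± 0.16 (SE, 95% interval -0.35 to 0.39, limma adjusted p = 0.979). Its standard deviation within groups, 0.21 on the log2 CPM scale, was the smallest of the 9 genes, and the median over all tested genes was 0.80. The transcript shared no stretch of 51 bases with another gene and overlapped no other exon.

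The ratio of heavy chain to light chain counts within a library is free of the scaling between libraries. H2-K1 plus H2-D1 over B2m was 1.15, 1.15 and 0.651 in Ctrl and 0.969, 1.51 and 0.680 in TDP-43iΔEC. The lowest value was in a Ctrl mouse and the highest in a TDP-43iΔEC mouse, and the log2 difference was 0.07 (2-sided exact permutation test, p = 0.9).

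**Figure D1:**
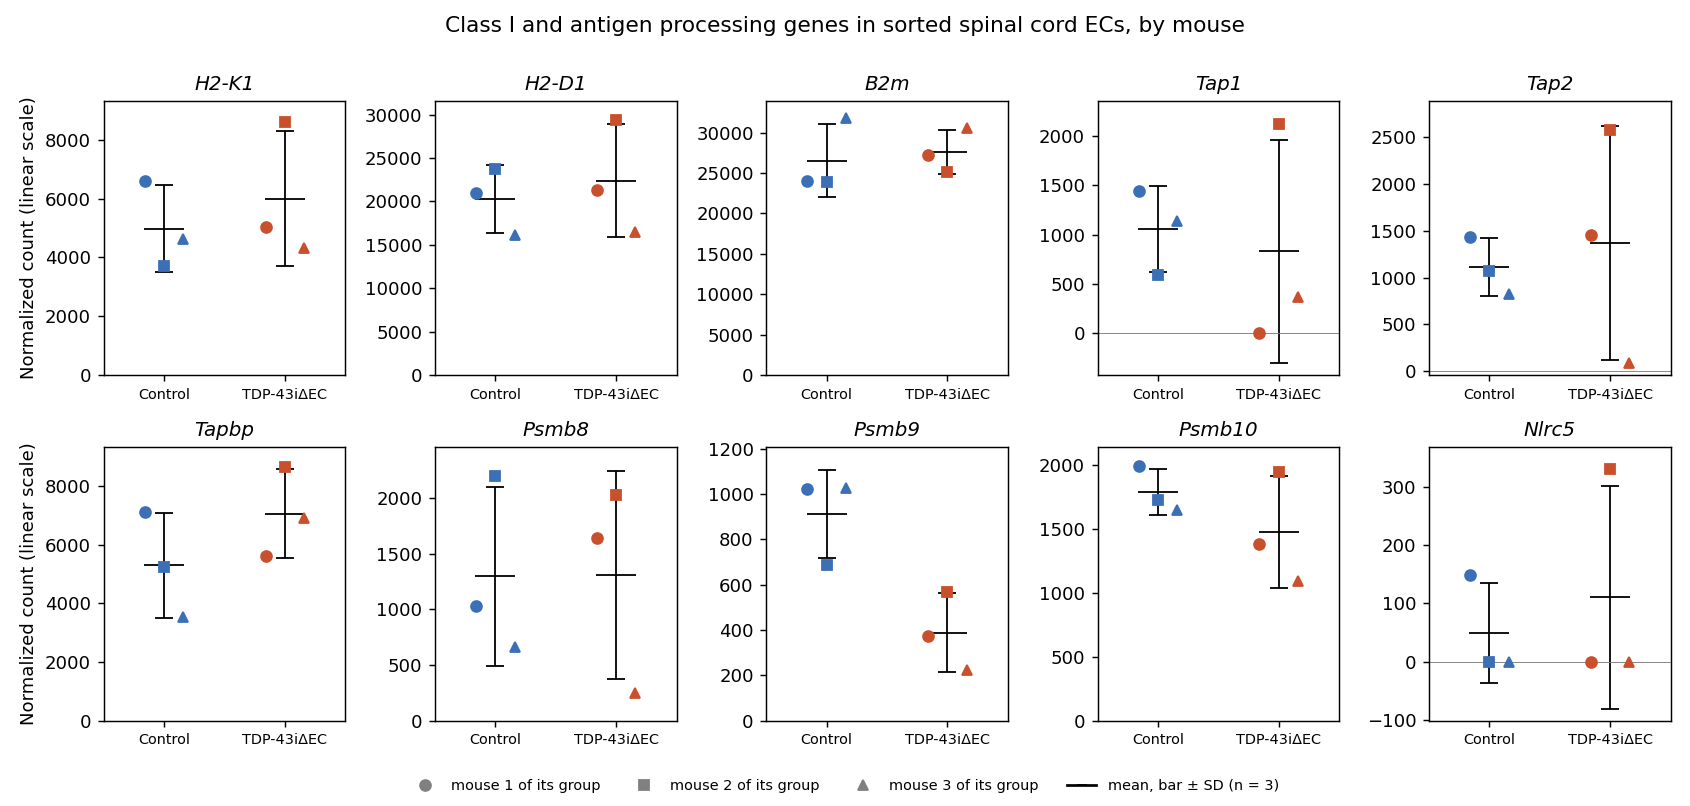
Normalized counts (linear y axis, its range set for each gene) of the 10 class I and antigen processing genes in Ctrl and TDP-43iΔEC mice; points are mice, horizontal lines are group means and vertical bars are ± 1 SD (n = 3), which pass below 0 where the SD is larger than the mean. The groups overlap for every gene but Psmb9, whose 3 TDP-43iΔEC values, 221 to 569, lie under its 3 Ctrl values, 688 to 1026.

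Tap1 and Tap2 together encode the TAP peptide transporter, and both varied far more between mice than the class I chains did. Tap1 (chr17:34405996-34416199, plus strand) had 1443, 585 and 1135 normalized counts in Ctrl and 1.52, 2120 and 366 in TDP-43iΔEC. The TDP-43iΔEC mice held both the lowest and the highest value, and the lowest rested on 2 counts in a library of 45010088. The log2 fold change was -4.04 ± 1.97 (SE, 95% interval -8.51 to 0.44, limma adjusted p = 0.560), whereas the means of normalized counts were 1054 ± 435 and 829 ± 1133 (SD, n = 3 each). The fitted value rested on the first TDP-43iΔEC library, since it was -0.10 without it, and on the model, since edgeR gave -0.40 and DESeq2 -0.35.

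Tap2 (chr17:34422501-34435829, plus strand) had 1438, 1071 and 826 normalized counts in Ctrl and 1454, 2581 and 85.1 in TDP-43iΔEC. Here the low library was the third TDP-43iΔEC mouse and not the first. Means were 1111 ± 308 and 1373 ± 1250 (SD, n = 3 each), against a log2 fold change of -0.34 ± 0.90 (SE, limma adjusted p = 0.923), of the opposite sign, and it was 0.73 without the third TDP-43iΔEC mouse. Within-group standard deviations on the log2 CPM scale were 3.43 for Tap1, 1.87 for Tap2 and 1.32 for Psmb8, above the median of 0.80 over all tested genes, and 0.21 to 0.54 for the other 6.

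Tapbp encodes tapasin, which holds the empty class I molecule next to TAP. Tapbp (chr17:34134873-34148267, plus strand) had 7099, 5251 and 3538 normalized counts in Ctrl and 5611, 8645 and 6918 in TDP-43iΔEC. Its log2 fold change of 0.38 ± 0.29 (SE, 95% interval -0.27 to 1.04, limma adjusted p = 0.673) was the highest of the 9, and the groups overlapped. Of its exon bases in GENCODE M39, which is not the M30 annotation of the counts, 52.8% overlap exons of other genes. Zbtb22, on the same strand, overlaps 20.9%. The part of this overlap in its counts was not tested.

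**Figure D2:**
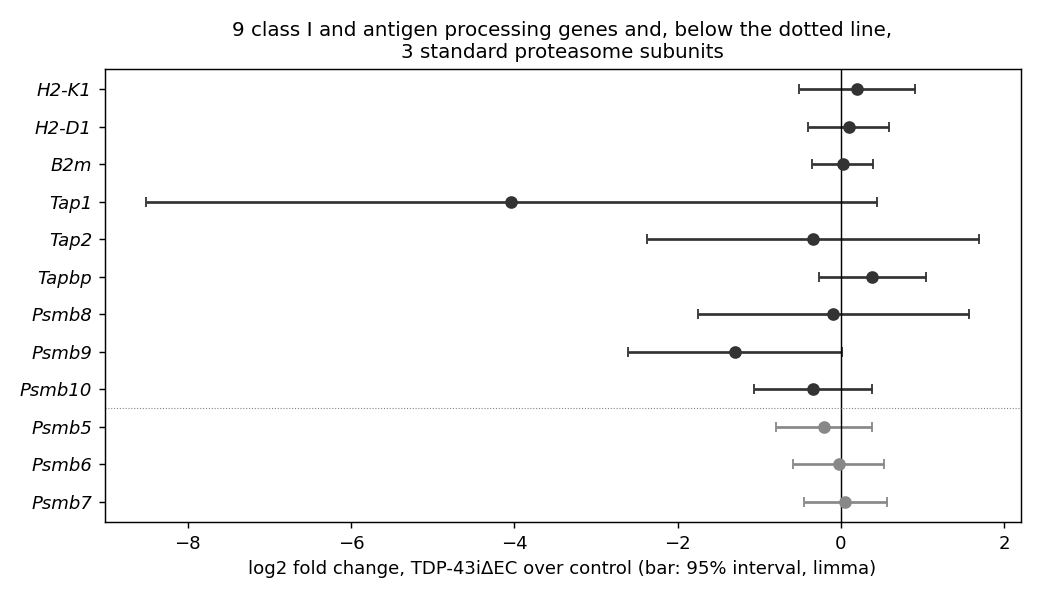
Log2 fold change of TDP-43iΔEC over Ctrl ECs (x axis) for the 9 class I and antigen processing genes tested and, below the dotted line, for 3 standard proteasome subunits; points are limma estimates and bars their 95% intervals. The interval of each of the 9 includes 0, and those of Tap1 (-8.51 to 0.44) and Tap2 (-2.37 to 1.69) are the widest among them.

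Psmb8, Psmb9 and Psmb10 encode the catalytic subunits of the immunoproteasome, which replace Psmb5, Psmb6 and Psmb7 of the standard proteasome. Psmb9 (chr17:34400960-34406738, minus strand) had 1024, 688 and 1026 normalized counts in Ctrl and 375, 569 and 221 in TDP-43iΔEC. Every TDP-43iΔEC value was under every Ctrl value, the only such gene of the 9. Means were 913 ± 194 and 388 ± 174 (SD, n = 3 each), and the log2 fold change was -1.30 ± 0.58 (SE, 95% interval -2.61 to 0.02, limma adjusted p = 0.541), short of the threshold also before adjustment. Over 16 alternatives it stayed between -1.53 and -1.02, with limma, edgeR or DESeq2 adjusted p values of 0.437 to 0.863. Of its transcript, 38.1% lay in stretches of 51 bases shared with its neighbour Tap1 on the opposite strand, so that reads of the 2 genes cannot all be told apart.

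Psmb8 (chr17:34416690-34420428, plus strand) had 1036, 2205 and 658 normalized counts in Ctrl and 1646, 2035 and 249.8 in TDP-43iΔEC. Both groups spread widely and overlapped, with means of 1299.6 ± 806 and 1310 ± 939 (SD, n = 3 each). The log2 fold change was -0.09 ± 0.73 (SE, 95% interval -1.75 to 1.57, limma adjusted p = 0.980), and it was 0.63 without the third TDP-43iΔEC mouse.

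Psmb10 (chr8:106662362-106665077, minus strand), which lies outside the MHC, had 1994, 1722 and 1647 normalized counts in Ctrl and 1383, 1949 and 1089.9 in TDP-43iΔEC. The TDP-43iΔEC mice held the lowest pair of values, and their highest lay within the Ctrl range. Its log2 fold change was -0.34 ± 0.32 (SE, 95% interval -1.07 to 0.38, limma adjusted p = 0.740). The third TDP-43iΔEC mouse was the lowest of all 6 for each of the 3 immunoproteasome subunits and for Tap2.

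Each immunoproteasome subunit was also set against the standard subunit it replaces, as a ratio of counts within the library. Psmb8 over Psmb5 was 0.203, 0.546 and 0.141 in Ctrl and 0.350, 0.434 and 0.0891 in TDP-43iΔEC. Psmb9 over Psmb6 was 0.186, 0.0698 and 0.151 in Ctrl and 0.0560, 0.0867 and 0.0249 in TDP-43iΔEC. Psmb10 over Psmb7 was 0.322, 0.237 and 0.184 in Ctrl and 0.171, 0.303 and 0.114 in TDP-43iΔEC. In every pair the groups overlapped, also for Psmb9, because its second Ctrl ratio was under the second TDP-43iΔEC ratio. The log2 differences were -0.07 (2-sided exact permutation test, p = 1), -1.34 (p = 0.2 by the same exact test) and -0.42 (p = 0.4 by the same exact test). The standard subunits themselves had log2 fold changes of -0.21 ± 0.26 for Psmb5, -0.03 ± 0.25 for Psmb6 and 0.06 ± 0.22 for Psmb7 (SE, limma adjusted p = 0.814, 0.980 and 0.956).

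**Figure D3:**
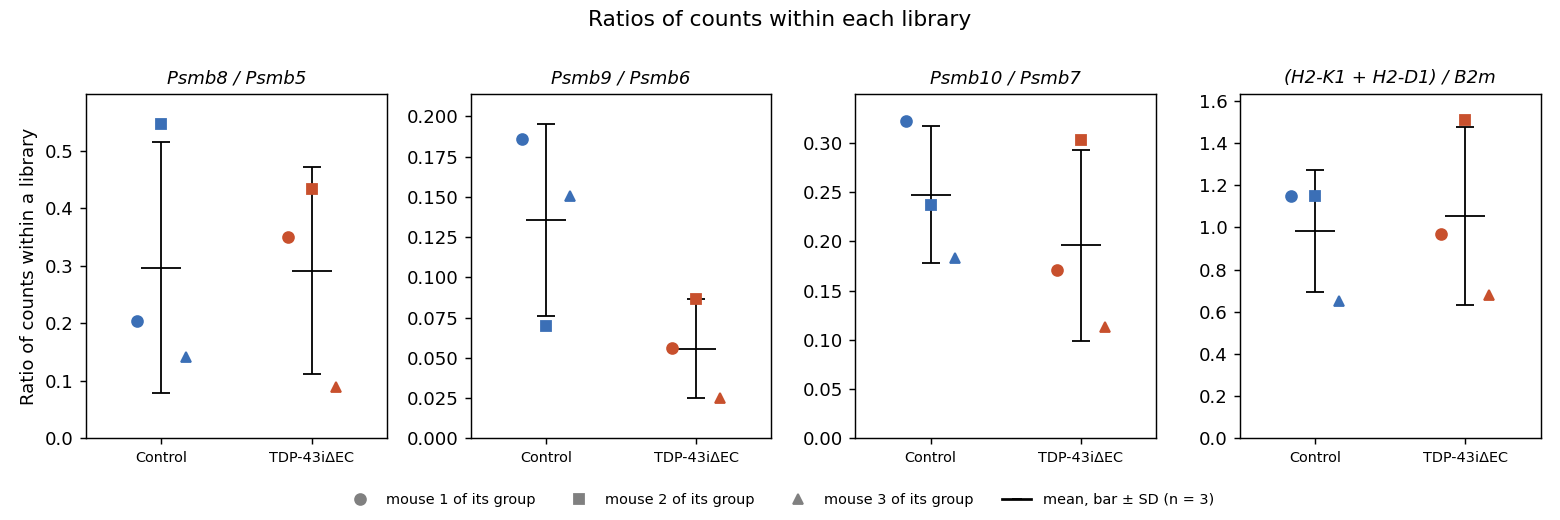
Ratio of counts within each library (linear y axis from 0, its range set for each ratio) for each immunoproteasome subunit over its standard counterpart and for the heavy chains over B2m; points are mice, horizontal lines are group means and vertical bars are ± 1 SD (n = 3). Groups overlap in all 4 panels, and the Psmb9 to Psmb6 ratio has the largest log2 difference, -1.34.

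Nlrc5 encodes the regulator that acts at class I promoters and was the gene that did not pass the filter on low counts. Nlrc5 (chr8:95160984-95253900, plus strand) had 178, 0 and 0 counts in Ctrl and 0, 278 and 0 in TDP-43iΔEC, so 1 mouse of each group had counts and 4 libraries had 0, which allows up to 3 counts, or 0.0635 to 0.117 CPM, in each. Where dropping the filter or leaving out a mouse let Nlrc5 be tested, it did not pass the adjusted threshold of limma. Such a floor covers counting error only, and the SMARTseq2 libraries carried no molecular identifiers.

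In the genome, 7 of the 10 genes lie on chromosome 17, and 4 of them (Psmb9, Tap1, Psmb8 and Tap2) stand side by side within 34.9 kb. Levels of these neighbours differed within a library, since the first TDP-43iΔEC library had 1.52 normalized counts of Tap1 beside 375 of Psmb9, 1646 of Psmb8 and 1454 of Tap2. The third had 366 of Tap1, 221 of Psmb9, 249.8 of Psmb8 and 85.1 of Tap2, low values for all 4.

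Levels were compared between genes per length, as CPM per kb of the canonical transcript, in Ctrl ECs. B2m was the highest at 637 ± 113 (SD, n = 3), followed by H2-D1 at 249 ± 44.0, H2-K1 at 80.8 ± 27.7, Tapbp at 46.6 ± 17.2 and Psmb10 at 35.6 ± 5.11. Below these came Psmb8 at 19.6 ± 11.3, Psmb9 at 17.7 ± 4.41, Tap1 at 8.96 ± 4.04, Tap2 at 7.32 ± 2.29 and Nlrc5 at 0.178 ± 0.308. Of neighbours in this order, the Ctrl values did not overlap between B2m and H2-D1, H2-D1 and H2-K1, Psmb10 and Psmb8, and Tap2 and Nlrc5, while all others overlapped. The standard subunits stood higher than their induced counterparts on the same scale, at 70.8 for Psmb5, 184 for Psmb6 and 167.5 for Psmb7. In TDP-43iΔEC ECs the order began in the same way, with B2m at 731 ± 41.6, H2-D1 at 307 and H2-K1 at 107.5 CPM per kb.

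The pattern of the 9 genes together over the mice was given by the mean of their standardized log2 CPM values. It was 0.44, -0.03 and -0.04 in Ctrl and -0.30, 0.75 and -0.82 in TDP-43iΔEC. The highest and the lowest mouse were both TDP-43iΔEC, and the Ctrl mice lay between them. Among 8243 other genes with a mean of at least 10 CPM, those with the pattern most like it over the 6 libraries were Car14 (Pearson r = 0.992), Vps4a (0.986), Fes (0.980), Insig1 (0.976) and G3bp1 (0.971). All values of r come from the same 6 libraries, and the genes are those with the highest r of many.

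The other heavy chains and class I-like genes mostly had lower values in TDP-43iΔEC, though none passed the test. Of 18 such genes, 10 were tested, 1 had a fold change above 0 and 9 below (50.7% of all tested genes were below), and 0 passed the adjusted threshold. The median log2 fold change was -1.33. At an unadjusted p of 0.05, 3 were lower (5% of all tested genes) and 0 higher. Groups did not overlap for 3 of the tested genes, all lower (7.1% of all tested genes). H2-Q7, which was below the filter, had 0, 0.890 and 0 normalized counts in Ctrl and 229, 44.1 and 1.42 in TDP-43iΔEC. Its normalized values did not overlap, but before scaling Ctrl 2 and TDP-43iΔEC 3 each held 1 count. These libraries were therefore set apart by their size factors only. Fold changes were also below 0 for 9 of 10 neural cell markers tested (median -4.13, 4 lower at an unadjusted p of 0.05), 5 of 5 red blood cell genes (median -1.99) and 7 of 8 EC markers (median -0.24), and their part in these values was not tested. H2-T23 encodes Qa-1, the non-classical molecule that presents leader peptides to receptors of natural killer cells. It had 6897, 6470 and 5553 normalized counts in Ctrl and 1532, 1406 and 3562 in TDP-43iΔEC, each Ctrl value above each TDP-43iΔEC value (log2 fold change -1.79 ± 0.32 SE, limma adjusted p = 0.129).

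Fcgrt encodes the neonatal Fc receptor, which pairs with β2-microglobulin and carries antibodies across and out of ECs. It had 31637, 25996 and 23228 normalized counts in Ctrl and 10885, 13495 and 12624 in TDP-43iΔEC (log2 fold change -1.18 ± 0.18 SE, limma adjusted p = 0.0537), just short of the threshold. Hfe, a class I-like regulator of iron uptake that also pairs with β2-microglobulin, had 1675, 2094 and 1142 in Ctrl and 509, 947 and 843 in TDP-43iΔEC (-1.23 ± 0.44 SE, limma adjusted p = 0.471). H2-K1 and H2-D1 together took 70.1%, 73.8% and 67.9% of the counts of all H2 class I heavy chain genes in Ctrl and 83.6%, 87.5% and 77.6% in TDP-43iΔEC. These shares did not overlap between groups. They also depend on the counts of the other H2 genes, such as H2-T23, and so are not separate from those values. The sum of H2-K1 and H2-D1 itself had a log2 difference of 0.14. Since the H2 genes share sequence, read assignment may also affect the shares, and its part was not tested.

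Among 10 genes of peptide loading and trimming, all tested, 4 had fold changes above 0 and 6 below, with a median of -0.14 and 0 past the adjusted threshold. At an unadjusted p of 0.05, 2 were higher (4.26% of all tested genes) and 0 lower. These were partners of tapasin in the loading complex. Calr, the chaperone calreticulin, had 8191, 8811 and 7411 normalized counts in Ctrl and 12372, 13397 and 10745 in TDP-43iΔEC (log2 fold change 0.55 ± 0.17 SE, limma adjusted p = 0.370). Pdia3, the disulfide isomerase ERp57, had 18704, 13794 and 18109 in Ctrl and 23321, 35479 and 21587 in TDP-43iΔEC (0.60 ± 0.22 SE, limma adjusted p = 0.471). Both proteins also serve protein folding at large. In both genes, and in Canx (calnexin, means of 11197 and 13399, limma adjusted p = 0.652), every TDP-43iΔEC value was above every Ctrl value. That held for 3 of the 10 genes, beside 7.93% of all tested genes.

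The third gene by p in this list was Uggt1, which tags misfolded glycoproteins for another round of folding, at -0.58 ± 0.31 (SE, limma adjusted p = 0.581). Among 7 standard proteasome subunits, activators and assembly factors, all tested, 0 passed the adjusted threshold, 3 had fold changes above 0 and 4 below, and the median was -0.00. Psme2, a subunit of the interferon-induced activator PA28, had 4401, 3262 and 4132 normalized counts in Ctrl and 6566, 6198 and 8404 in TDP-43iΔEC, without overlap (0.78 ± 0.23 SE, limma adjusted p = 0.360). It was the 1 gene of the 7 that was higher without overlap, beside 7.93% of all tested genes. It was also the 1 gene higher at an unadjusted p of 0.05, beside 4.26% of all tested genes. Psme3, the nuclear member of that activator family, and Pomp, the assembly factor of the proteasome, had log2 fold changes of 1.22 ± 0.61 and -0.37 ± 0.26 (SE, limma adjusted p = 0.564 and 0.655).

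**Figure D4:**
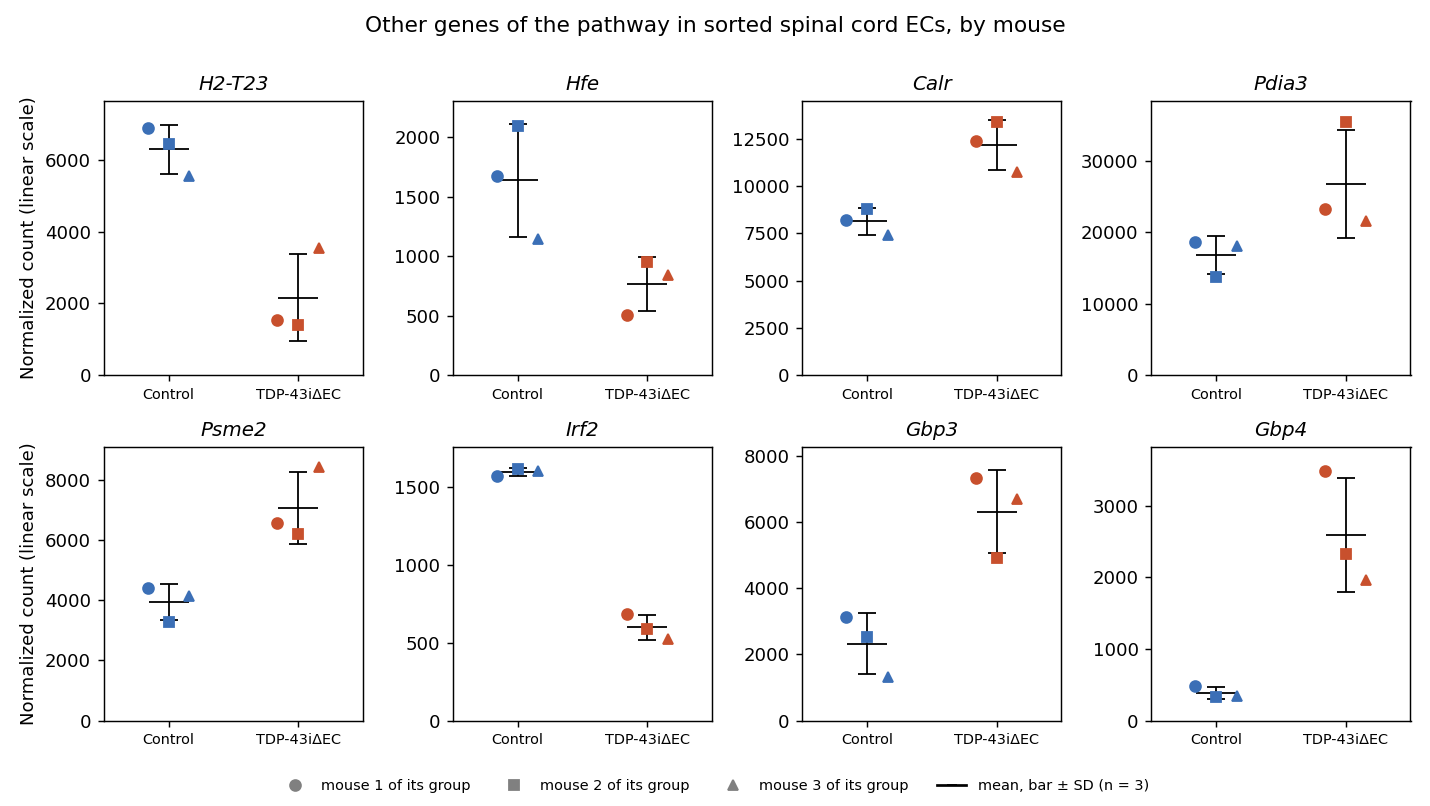
Normalized counts (linear y axis from 0, its range set for each gene) of 8 genes of the other lists. Points are mice, horizontal lines are group means and vertical bars are ± 1 SD (n = 3). The 8 were picked among genes whose groups did not overlap, which held for 15% of all tested genes. H2-T23, Hfe and Irf2 are lower and Calr, Pdia3, Psme2, Gbp3 and Gbp4 higher in TDP-43iΔEC, and none passed the adjusted threshold.

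Of 26 regulators of class I transcription, all tested, 14 had fold changes above 0 and 12 below, with a median of 0.07 and 0 past the adjusted threshold. At an unadjusted p of 0.05, 2 were higher and 1 lower, beside 4.26% and 5% of all tested genes. Without overlap between groups, 2 were higher and 2 lower, beside 7.93% and 7.1% of all tested genes. Irf2, a factor that binds interferon response elements and competes there with Irf1, had 1566, 1615 and 1599.5 normalized counts in Ctrl and 684, 587 and 522 in TDP-43iΔEC (log2 fold change -1.41 ± 0.38 SE, limma adjusted p = 0.326). Nfyc, a subunit of the Y box factor NF-Y, was at 1.56 ± 0.66 (SE, limma adjusted p = 0.522). Irf8, a factor mainly of myeloid cells, had 0, 16.9 and 91.7 in Ctrl and 538, 112 and 174.5 in TDP-43iΔEC (limma adjusted p = 0.533). Ifnar1 and Ifnar2, the subunits of the type I interferon receptor, were at -0.50 ± 0.29 and -0.39 ± 0.28 (SE, limma adjusted p = 0.603 and 0.667).

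Irf1, named after its values were seen as a known activator of these promoters, overlapped between groups. It had 2155, 156 and 1300 normalized counts in Ctrl and 2038, 2045 and 2537 in TDP-43iΔEC (log2 fold change 1.44 ± 0.75 SE, limma adjusted p = 0.578), and the low second Ctrl value stood apart from the other 5.

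Interferon response genes outside the pathway are set beside it because interferons induce both. Of 31 such genes, 30 were found by symbol and 28 were tested, 25 had fold changes above 0 (49.3% of all tested genes did) and 3 below, and 0 passed the adjusted threshold. Their median log2 fold change was 0.80, beside -0.09 for the 9 class I and antigen processing genes, and 11 did not overlap between groups, all higher (7.93% of all tested genes). At an unadjusted p of 0.05, 8 were higher and 1 lower, beside 4.26% and 5% of all tested genes. Leaving out each mouse in turn, a check chosen after seeing the data, left 23 to 25 of these 28 genes above 0. The 28 share inducers and come from the same 6 libraries, so their values are not independent. Some of the largest fold changes rested on 0 counts in the second Ctrl library, which had the fewest genes with a count (12972).

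Gbp4 and Gbp3, guanylate-binding GTPases of the defence against microbes inside cells, had the lowest p values of that list. Gbp4 had 484, 322 and 345 normalized counts in Ctrl and 3483, 2325 and 1957 in TDP-43iΔEC (log2 fold change 2.76 ± 0.52 SE, limma adjusted p = 0.139). Gbp3 had 3132, 2533 and 1311 in Ctrl and 7353, 4913 and 6698 in TDP-43iΔEC, with means of 2325 ± 928 and 6322 ± 1263 (SD, n = 3 each, limma adjusted p = 0.239). In both, each TDP-43iΔEC value was above each Ctrl value. Ifit3, an antiviral effector, had 136, 563 and 34.1 in Ctrl and 1799, 2266 and 2117 in TDP-43iΔEC (3.86 ± 0.97 SE, limma adjusted p = 0.286). The most abundant were Ifitm3, which blocks viral entry, at 0.47 ± 0.18, and Irgm1, an immunity-related GTPase, at 0.82 ± 0.30 (SE, limma adjusted p = 0.483 and 0.473).

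The interferon genes themselves were at or near the floor: of Ifng, Ifnb1, Ifna4, Ifnl2 and Ifnl3, 3 had 0 counts in every library, and Ifnl2 and Ifnl3 had 1 and 2 counts in the first TDP-43iΔEC library alone. The difference between the lists was not tested.

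**Figure D5:**
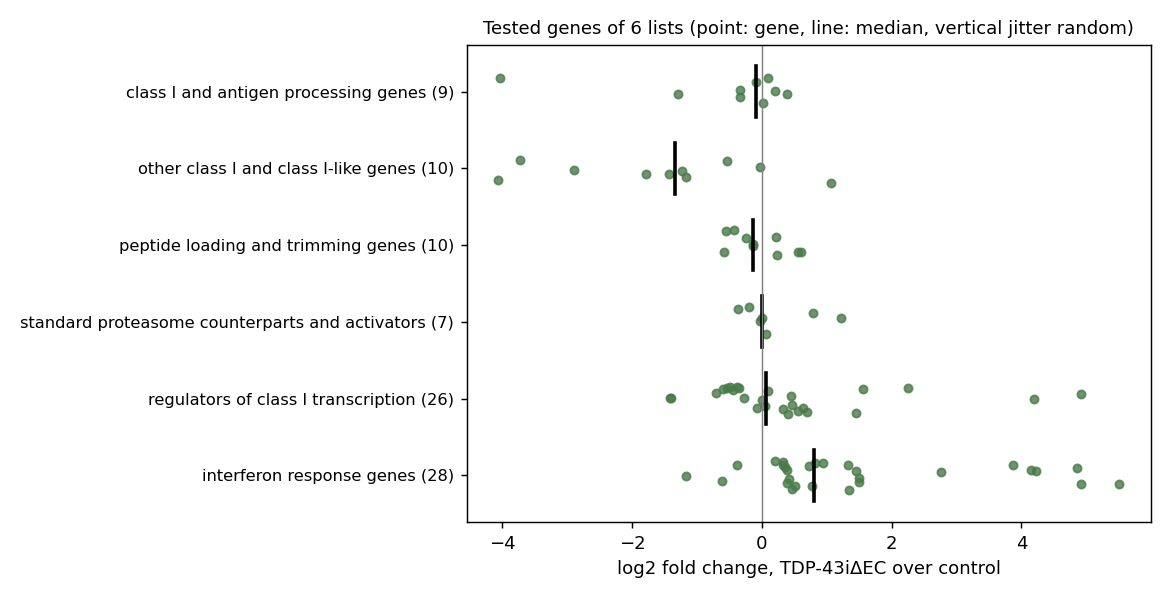
Log2 fold change of TDP-43iΔEC over Ctrl ECs (x axis) for the tested genes of 6 lists (rows, with the number of genes tested); points are genes, vertical lines are list medians and the height of a point within its row has no meaning. The class I and antigen processing genes lie around 0 with Tap1 at -4.04, the other class I and class I-like genes mostly below 0 (median -1.33) and the interferon response genes mostly above 0 (median 0.80).

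White blood cells carry class I and immunoproteasome genes at high levels, and the markers chosen for them were low in these libraries. Markers of microglia and macrophages summed to 6.47, 0 and 6.58 CPM in Ctrl and 8.22, 3.61 and 10.8 in TDP-43iΔEC over 15 genes, of which 3 were tested and Itgam and Adgre1 had 0 counts in every library. T and NK cell markers summed to 0 CPM in 4 libraries and to 0.386 and 1.67 in the first Ctrl and first TDP-43iΔEC library, with 6 of 8 genes at 0 throughout. The 3 tested markers of microglia and macrophages all had fold changes below 0 (median log2 -1.45). Outside these markers, Irf8, a factor mainly of myeloid cells, and Ctss were higher in every TDP-43iΔEC library than in any Ctrl library. That held for 7.93% of all tested genes. Of the 4 MHC class II pathway genes tested, Ctss among them, 2 had fold changes above 0 and 2 below. The part of white blood cells in these values was not tested. The 10 class I and antigen processing genes summed to 1792, 1558 and 1600 CPM in Ctrl and 1877, 2417 and 1652 in TDP-43iΔEC. Markers of mural cells and fibroblasts summed to 510.2 to 846 CPM in Ctrl and 401 to 1047 in TDP-43iΔEC, highest in the second TDP-43iΔEC mouse, as were H2-K1 and H2-D1, and their part in those values was not tested. Neural markers summed to 314 to 584 CPM in Ctrl and 25.1 to 525 in TDP-43iΔEC. In sorted bulk samples, fewer cells with a transcript and less of it per cell cannot be told apart.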

How the data were processed

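Libraries were made by the authors with a modified SMARTseq2 protocol from sorted ECs. Each was taken as 1 mouse, and the sources used here do not say whether any was a pool. The supplement of the study lists antibodies to CD31, CD45 and TER-119, and the sort gate was not given in the sources used here. The authors aligned reads to GRCm39 with the GENCODE M30 annotation using STAR 2.7.8a and deposited estimated counts per gene from RSEM 1.3.0 with default options, which ignore strand. The deposited estimated counts were whole numbers (0 values were not), unscaled and unfiltered, and 0 columns were left without a sample. Nothing in the labels says that mice of a group came from separate litters, so p-values measure the spread between these samples.

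Groups came from the labels. Genes were tested in R 4.3.3 with limma 3.58.1 (voom), TMM factors and filterByExpr of edgeR 4.0.16, without covariates, with Benjamini-Hochberg adjustment over 13107 genes and a threshold of 0.05. Normalized counts are counts divided by DESeq2 1.42.0 size factors. Ratios and sums were compared by 2-sided exact permutation tests. Scripts were tested on simulated data. Positions and exons came from GENCODE M39, which matched 98.7% of gene identifiers, and upstream sequences from RefSeq. Of each list of pathway, interferon response and MHC class II pathway genes, the 3 genes with the lowest p and the 2 of highest mean CPM are named and Irf1 was added after its values were seen. Some genes of these lists are not reported here. The genes and lists were chosen with earlier results of these data known.

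Alternatives were edgeR's quasi-likelihood test, DESeq2, sample quality weights, DESeq2 size factors, library size only, scaling to 5 EC markers, leaving out hemoglobin, mitochondrial and ribosomal RNA genes, no filter, at least 10 counts in every library, an adjusted p of 0.1, the replicate number as a block and leaving out each mouse.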

Additional observations from a re-analysis of the deposited data

How the results depend on the processing

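Of the 9 genes, and Nlrc5 where it could be tested, 0 passed the adjusted threshold under any of the alternatives with limma, edgeR or DESeq2. At an unadjusted p of 0.05, 0 to 2 of them passed. Over all genes, limma called 18, edgeR 0 (848 at an unadjusted p of 0.05), DESeq2 247, library size only 10, scaling to 5 EC markers 1, no filter 76, at least 10 counts in every library 39 and an adjusted p of 0.1 31. Leaving out each mouse gave 0 (without TDP-43iΔEC 1, with 960 at an unadjusted p of 0.05) to 13 calls, namely 3, 10 and 13 without Ctrl 1, 2 and 3 and 3 and 2 without TDP-43iΔEC 2 and 3. Tardbp passed with DESeq2 only (adjusted p = 0.0221).

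Fold changes of the 9 genes kept their sign in 123 of 143 refits and took the other sign in 20. For Tap2 the log2 value was 0.26 with edgeR, 0.30 with DESeq2, 0.39 with the block and 0.73 without TDP-43iΔEC 3. For Psmb8 it was 0.012 with DESeq2, 0.19 with quality weights, 0.053 with library size only, 0.18 with EC scaling, 0.10 with the block, 0.32 without Ctrl 2 and 0.63 without TDP-43iΔEC 3. For B2m it was -0.053 with quality weights and -0.0035 with no filter. Leaving out each mouse, the value ran from -0.072 to 0.17 for B2m (below 0 without Ctrl 1, Ctrl 2 or TDP-43iΔEC 3), -0.070 to 0.42 for H2-K1 (below 0 without Ctrl 2 or TDP-43iΔEC 2), -0.096 to 0.26 for H2-D1 (below 0 without Ctrl 3 or TDP-43iΔEC 2), -0.95 to 0.73 for Tap2 and -0.57 to 0.63 for Psmb8. Library size only, EC scaling and leaving out Ctrl 2 moved the median of all genes to 0.18, 0.23 and -0.17.

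Leaving out each mouse, the log2 difference ran from -0.50 to 0.64 for Psmb8 over Psmb5, from -1.76 to -0.84 for Psmb9 over Psmb6, from -0.79 to -0.08 for Psmb10 over Psmb7, from -0.23 to 0.35 for the heavy chains over B2m and from -0.10 to 0.34 for summed H2-K1 and H2-D1. The sum over all H2 class I genes gave -0.094. Other class I and class I-like genes above 0 numbered 1 to 3 of those tested.

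The labels do not say whether same-numbered mice were paired. Correlations of the deviations of same-numbered mice were -0.06, -0.11 and -0.02, and those of differently numbered mice ran from -0.04 to 0.11. With 3 mice per group such values cannot exclude a pairing. The block gave 22 calls over all genes. Depth differed, with Nlrc5 and Tap1 at or near the floor in some libraries, and the causes of these shifts were not tested.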

Other observations

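Genes of the MHC class II pathway, which presents peptides from outside the cell, were low in these ECs. Of 10, 4 were tested, and 0 passed the adjusted threshold of limma. At an unadjusted p of 0.05, 1 was higher (Ctss) and 1 lower (H2-Ob), beside 4.26% and 5% of all tested genes. Ctss, the protease cathepsin S that trims the class II invariant chain, had 0, 0 and 1.62 normalized counts in Ctrl and 254, 90.6 and 239.8 in TDP-43iΔEC (limma adjusted p = 0.270). H2-Ob, a chain of a class II peptide loading modulator, had 205.5, 441.5 and 140.4 in Ctrl and 0, 4.77 and 265.4 in TDP-43iΔEC, with overlap (limma adjusted p = 0.530). H2-Eb1, a β chain of class II itself, had 9.15, 479 and 111 in Ctrl and 0, 0 and 177 in TDP-43iΔEC, also with overlap (limma adjusted p = 0.613).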
